A study of Mus musculus with 36 samples.

Results

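A further 12 weeks of ad libitum high-fat feeding were set against the start of the same feeding period in the epididymal white adipose tissue of male mice. The 24 arrays described here, of 36 in the series, were chosen by their labels: 12 arrays of the group called t0 and 12 of the group called HF-AL, 1 adult C57BL/6J male per array. Every mouse first ate a purified diet with 30 energy% fat, as much as it liked, for 3 weeks. The t0 mice were killed then, and the HF-AL mice ate that diet on the same terms for 12 more weeks. The 12 remaining arrays hold HF-DR mice, which were restricted over those 12 weeks (a restriction of 70 energy%, in the wording of the labels); their values are given only beside genes named here. No group on another diet is among the samples, so the high-fat diet is shared by all of them. HF-AL mice were 12 weeks older than t0 mice, so that age and duration of feeding cannot be told apart. The time of day of the kill is not given in the labels.

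For each mouse 500 ng of RNA was labelled, with the mouse's own RNA in Cy5 and a pool of all samples in Cy3 on the same array. A value is therefore the log2 ratio of 1 mouse to the pool: 0 is the pool's level, and the pool cancels in a difference between groups. All arrays ran in that dye orientation. After leaving out probes that were not well above background, 16495 genes were tested with limma, and a gene is called changed where the p-value after Benjamini-Hochberg adjustment over all of them was under 0.05.

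Markers of the labelled tissue were present: of 19 mature adipocyte markers, 18 were named on the array and all of these passed the background filter. Epididymal fat lies against the epididymis, and 3 HF-AL arrays also carried some transcripts known from sperm and from epithelia. Prm1, a protamine that packs sperm DNA, was at 1.77, 3.71 and 2.43 on HF-AL 5, 7 and 9, against -2.20 to -0.58 on the other 21 arrays of t0 and HF-AL. Tekt1, a protein of sperm flagella and cilia, was at 1.60, 2.48 and 2.65 there and between -2.49 and 0.34 on the others. The epithelial claudin gene Cldn7 was at 1.56, 2.69 and 2.83 against -2.53 to 0.34. Of 36 duct, gland and sperm markers 18 were measured and none was called, with a median of -0.00 over them. A ratio above 1 was reached by 5, 6 and 6 of the 18 on these arrays (Prm1, Prm2, Tnp1, Tekt1 and Cldn7, and Cldn3 on HF-AL 7 and 9). The epididymal lipocalin gene Lcn9 was at 0.01, -0.02 and -0.18 there and the duct keratin gene Krt7 at -0.32, -0.12 and -0.97. Seminal vesicle genes did not follow: Svs4 was at -5.51, -5.24 and -5.89. The part of HF-AL 5, 7 and 9 in the counts of changed genes, and in each named call that was lost without them, is given below. Among the HF-DR arrays, HF-DR 8 and 9 had 9 and 10 of the 18 markers above 1, and HF-DR 7 had 3. Those HF-DR arrays stayed in the main fit, in the repeat without HF-AL 5, 7 and 9 and in the HF-DR means. What part they had in the spread that the fit used was not tested. Between 55.7% and 86.3% of the probes on a t0 array were well above background in Cy5, and between 57% and 69.7% on an HF-AL array.

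White adipose tissue stores fat in adipocytes that are held in a mesh of collagen, and it houses macrophages, mast cells, lymphocytes and vessels whose share can change as a fat depot grows. Mast cells keep proteases in granules, among them chymases and carboxypeptidase A3. The Sp100 family encodes proteins of nuclear bodies that respond to interferon, and in the mouse its genes lie in a stretch of chromosome 1 that has been copied many times. In a whole tissue fewer cells of a type and less RNA per cell cannot be told apart, which holds for all of the values below.

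The largest difference was in that chromosome 1 stretch, where C130026I21Rik was 4.34-fold and Csprs 1.95-fold higher in HF-AL than in t0, each with no overlap between the mice of either group. Mast cell protease genes rose by 1.40 to 1.49-fold. Fam13a, Cited2, Irf4, Mmp12 and Txnip were among the genes that fell, by 1.43 to 1.74-fold. Genes of fatty acid synthesis, lipolysis and the respiratory chain had no called member, where 0.697% of all genes tested were called. The 95% confidence interval lay inside 1.5-fold either way for 23 of 25, 16 of 20 and 41 of 41 of them. Over all genes tested it was so for 94.7%.

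In all, 115 genes changed (0.697% of those tested). Of these 77 were higher in HF-AL (0.467%) and 38 were lower (0.23%). Before adjustment, 1294 genes were higher at p under 0.05 (7.84%) and 926 were lower (5.61%). The median size of the 115 differences was 0.35 on the log2 scale, and 14 of them reached 1.5-fold, 9 upward and 5 downward. For 15628 genes (94.7%) the 95% confidence interval of the difference lay wholly inside 1.5-fold either way. Values of HF-AL and t0 mice did not overlap for 7 genes (0.0424%), of which Csprs, C130026I21Rik, Homer2 and Ints2 were higher and Adcyap1r1, Cog4 and Stc1 were lower; 5 of the 7 were called. Without HF-AL 5, 7 and 9, 68 genes changed (0.412%), 51 of them among the 115. With slide as a block 86 changed, 38 of them among the 115. That fit used only slides with more than 1 array, so HF-AL 1, 2 and 3 and HF-DR 7 to 12 were not in it. What part the slides and the missing arrays had in the calls it lost was not tested. Of 35 called genes named below (leaving aside TC1636390 and BC096473, which kept theirs), 17 then had no call, at adjusted p of 0.0523 to 0.158: Cma1, Cpa3, Mrgprb2, Ighg, Clec4d, Rgs1, Irf4, Foxq1, Ppp1r13l, Serpina3n, Fam214a, Unc79, Slc35g1, Nipsnap1, Pcbd1, Col5a2 and Col5a3. The count was 305 when the HF-DR arrays, whose genes spread more widely, were left out of the fit, and 1132 when the arrays were scaled to 1 spread.

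The promoters of genes from the chromosome 1 stretch are shown first, because they show how alike the starts of these genes are; the probes themselves were not compared with the copies. RefSeq promoters (build GRCm38.p6, 300 bases around the start of each gene) were used for the changed genes C130026I21Rik (chr1:85270517-85270816, minus strand) and A530032D15Rik (chr1:85109804-85110103, minus strand), and for Sp140 (chr1:85600453-85600752, plus strand), a member of the family that is not among the genes tested. Capitals mark the longest run of bases common to the 3 promoters, which is 146 bases long.
C130026I21Rik: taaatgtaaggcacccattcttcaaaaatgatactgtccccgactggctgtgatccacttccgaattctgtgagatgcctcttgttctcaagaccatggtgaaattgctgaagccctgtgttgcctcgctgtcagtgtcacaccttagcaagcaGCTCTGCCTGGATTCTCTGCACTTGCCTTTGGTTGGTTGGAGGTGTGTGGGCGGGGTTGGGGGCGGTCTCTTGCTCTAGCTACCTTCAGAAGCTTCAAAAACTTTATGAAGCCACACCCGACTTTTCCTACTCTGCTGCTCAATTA
A530032D15Rik: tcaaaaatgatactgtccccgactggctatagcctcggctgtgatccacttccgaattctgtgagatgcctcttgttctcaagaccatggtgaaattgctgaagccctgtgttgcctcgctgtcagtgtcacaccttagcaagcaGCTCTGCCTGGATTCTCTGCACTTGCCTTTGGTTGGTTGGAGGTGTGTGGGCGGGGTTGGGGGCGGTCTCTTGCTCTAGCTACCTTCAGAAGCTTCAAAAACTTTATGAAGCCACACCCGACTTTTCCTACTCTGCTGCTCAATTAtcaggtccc
Sp140: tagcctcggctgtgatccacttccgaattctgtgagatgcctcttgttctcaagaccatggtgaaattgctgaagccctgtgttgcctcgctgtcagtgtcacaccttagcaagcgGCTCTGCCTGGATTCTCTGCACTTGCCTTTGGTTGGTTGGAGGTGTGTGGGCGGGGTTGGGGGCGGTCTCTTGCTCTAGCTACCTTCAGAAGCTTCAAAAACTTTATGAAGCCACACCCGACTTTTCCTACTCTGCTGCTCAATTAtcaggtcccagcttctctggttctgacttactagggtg
The first of these is identical to the second at 86.9% of the positions of a global alignment and to the third at 76.9%, while it matches the promoter of Sp100 at 44%. Among 32851 RefSeq promoters of the mouse, the 146-base run was found in 3, those printed above.

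C130026I21Rik, named here after its values were seen because its clone-type name falls outside the naming rule, had the largest difference of all genes tested. Its probe lies at chr1:85125759-85125818 on the mm8 build that the array files use. At t0 the lowest, median and highest ratios were -2.10, -1.64 and -1.11. In HF-AL they were -0.44, 0.55 and 1.73, so every HF-AL mouse lay above every t0 mouse. The difference was 2.12 ± 0.17 (SE, n = 12 and 12), or 4.34-fold, at an adjusted p of 3.4e-10, and it was 2.17 without HF-AL 5, 7 and 9. HF-DR mice averaged -1.60, at a difference from t0 of 0.04 (adjusted p = 0.86).

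Csprs, which belongs to the copied stretch around Sp100, was probed at chr1:87370318-87380842. Its t0 mice ran from -1.02 through a median of -0.62 to -0.41, and its HF-AL mice from -0.09 through 0.25 to 1.29. Again the groups did not overlap. The rise was 0.96 ± 0.11 (SE), or 1.95-fold, at an adjusted p of 8.6e-07. HF-DR mice stood at -0.79 ± 0.24 (SD), a difference of -1.08 from HF-AL (adjusted p = 6.0e-11) and of -0.12 from t0 (adjusted p = 0.351).

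A530032D15Rik, the third of the kind and also named after its values were seen, was probed at chr1:84967478-84967537. It ranged from -0.58 through -0.29 to 0.12 at t0 and from -0.22 through 0.18 to 0.77 in HF-AL. Here the groups overlapped, with 8 of 12 HF-AL mice above the highest t0 mouse. The rise was 0.45 ± 0.08 (adjusted p = 0.00426), and the probe was well above background on 9 of 12 t0 arrays and on all 12 HF-AL arrays. On the 9 slides that held both groups, C130026I21Rik and Csprs were higher in HF-AL on 9 and A530032D15Rik on 8.

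Sp100 itself gave different values on its 3 probes. The brightest, which stands for the gene in the counts, differed by 0.08 ± 0.09 (adjusted p = 0.738), and another by 0.02 ± 0.07. A probe at chr1:87490946-87491003 ran from -1.34 through -0.99 to -0.72 at t0 and from -0.20 through 0.35 to 1.30 in HF-AL, so that on it the groups did not overlap. Looked at alone, after its values were seen, this probe was higher by 1.38 ± 0.10 (SE), or 2.61-fold, with an adjusted p of 1.7e-11 over all 24706 probes, and by 1.45 without HF-AL 5, 7 and 9. HF-DR mice averaged -1.19 on it.

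Both further calls in the stretch, also named after their values were seen, were smaller. TC1636390, a transcript known by its cluster name, rose by 0.29 ± 0.05 (adjusted p = 0.00168) on a dim probe at chr1:85039908-85039967 that was above background on 6 of 12 t0 and 10 of 12 HF-AL arrays. BC096473, probed at chr1:87440875-87440934, rose by 0.41 ± 0.09 (adjusted p = 0.017), with 8 of 12 HF-AL mice above the t0 range; without HF-AL 5, 7 and 9 the difference was 0.39 at an adjusted p of 0.054.

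Of 23 probes kept between Trip12 and Itm2c, tested probe by probe, 6 were higher and none was lower: those of C130026I21Rik, Csprs, A530032D15Rik, TC1636390 and BC096473 and the 1 probe of Sp100. Over all 24706 probes kept, 167 were called in either direction. The bounds of this stretch were set around C130026I21Rik after its values were seen. Sp110, a nuclear body protein, differed by 0.01 ± 0.11 (adjusted p = 0.981). LOC673370 differed by 0.27 ± 0.10 (adjusted p = 0.182 over all probes) and LOC545342 by -0.11 ± 0.06. Trip12, a ubiquitin ligase gene beside the stretch, differed by 0.08 ± 0.05 (adjusted p = 0.509), and Cab39, Itm2c, Fbxo36 and A630001G21Rik had differences between -0.06 and 0.22. For Sp110, the brightest Sp100 probe and Trip12 the difference HF-DR minus t0 was -0.47, -0.31 and -0.22. Which copies of the stretch the rising probes measured was not tested.

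**Figure D1:**
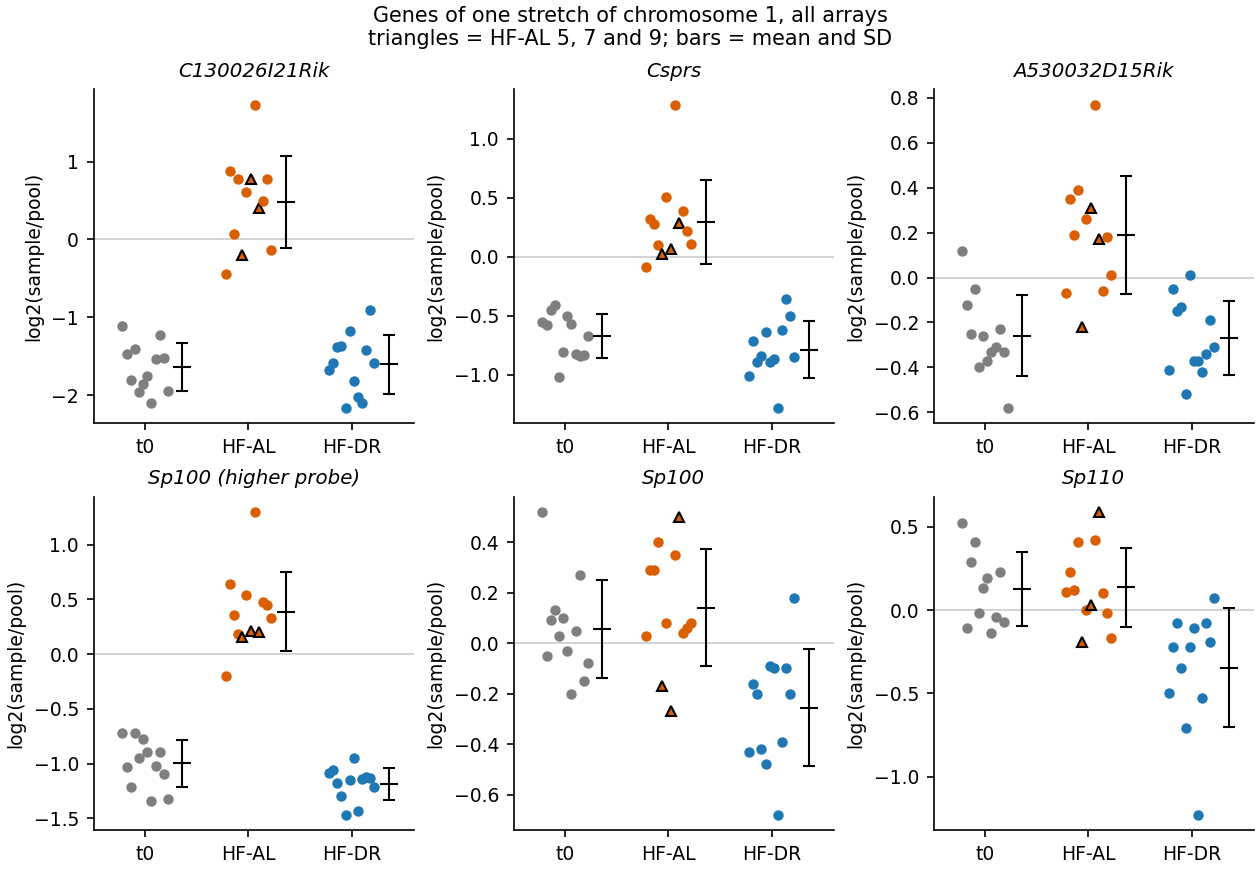
Log2 ratio to the pool (vertical axes, one scale per panel) on each array of t0, HF-AL and HF-DR for 6 probes of the chromosome 1 stretch, of which Sp100 (higher probe) and Sp100 (the brightest) are of 1 gene; triangles are HF-AL 5, 7 and 9, and bars give mean and SD. C130026I21Rik, Csprs and the higher Sp100 probe separate HF-AL from t0, while on the brightest Sp100 probe and for Sp110 the HF-AL values lie among those of t0.

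Some mast cell genes rose in HF-AL. Of 16 markers, 12 were measured and 4 were called higher (Mcpt4, Cma1, Cpa3 and Mrgprb2), with none lower. Of all genes tested, 0.467% were called higher and 0.23% lower. All 12 differences were above 0 and their median was 0.16, beside a median of 0.01 over all genes tested. A probe stays when it is above background in any group, so a dim marker can enter through the group where it is high. With no filter on dim probes 16 were measured, 14 above 0 and 2 below, with a median of 0.15. Without HF-AL 5, 7 and 9, 3 were called, 9 of 12 were above 0 and the median was 0.11. The Cpa3 promoter is printed because it is the only one of the 4 with a match to AGATAA, a sequence bound by GATA factors such as the mast cell factor GATA2; the search covered both strands, and 11.2% of all promoters hold a match. It lies at chr3:20242132-20242431 on the minus strand of GRCm38.p6, with the match in capitals.
Cpa3: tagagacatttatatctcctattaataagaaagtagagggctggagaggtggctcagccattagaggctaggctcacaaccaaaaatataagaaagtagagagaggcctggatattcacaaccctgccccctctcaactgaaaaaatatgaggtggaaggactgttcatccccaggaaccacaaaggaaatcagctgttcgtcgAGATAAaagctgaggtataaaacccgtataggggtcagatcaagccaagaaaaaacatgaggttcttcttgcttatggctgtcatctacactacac
Promoters of Mcpt4, Cma1 and Mrgprb2 held no match to AGATAA in the same window, which does not show that they lack a site for GATA factors. With both strands read, the windows of Mcpt4 and Mrgprb2 hold TGATAA and that of Cma1 holds AGATAG. Each differs from AGATAA in 1 base, and neither form was searched for over all promoters. Of the markers without a call, Fcer1a held a match to AGATAA and Kit did not.

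Mcpt4, a chymase of connective tissue mast cells, ran from -0.56 through a median of -0.23 to 0.07 at t0, and from -0.01 through 0.27 to 0.46 in HF-AL. There 10 of 12 HF-AL mice exceeded the highest t0 mouse. It rose by 0.53 ± 0.08 (SE), or 1.45-fold, at an adjusted p of 0.000125, and by 0.53 without HF-AL 5, 7 and 9 (adjusted p = 0.00161). A second Mcpt4 probe gave 0.46.

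Cma1, the other chymase of the group, ran from -1.36 through -0.55 to 0.28 at t0 and from -0.54 through 0.01 to 0.49 in HF-AL. Those ranges overlapped widely, with 1 HF-AL mouse above the t0 maximum. The rise of 0.58 ± 0.13 had an adjusted p of 0.0267, of 0.0742 without HF-AL 5, 7 and 9, and of 0.133 under the block on slides.

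Cpa3, the granule carboxypeptidase, ran from -0.97 through -0.44 to -0.09 at t0 and from -0.54 through 0.07 to 0.49 in HF-AL. In 9 of 12 HF-AL mice it was above every t0 mouse. It rose by 0.48 ± 0.10 (adjusted p = 0.0141), but with slide as a block the difference was 0.39 at an adjusted p of 0.0689. Mrgprb2, a receptor of connective tissue mast cells, rose by 0.20 ± 0.04 (adjusted p = 0.0188), on a dim probe that was above background on 8 of 12 t0 and 11 of 12 HF-AL arrays. Slide as a block gave it 0.16 (adjusted p = 0.0957).

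The remaining mast cell markers did not pass. Kit, the receptor for stem cell factor, differed by 0.16 and Fcer1a, a chain of the IgE receptor, by 0.15 ± 0.05 (adjusted p = 0.13). Hdc, the enzyme that makes histamine, was at 0.46 ± 0.31 with all arrays and at -0.23 without HF-AL 5, 7 and 9. Tpsb2, a tryptase, differed by 0.11. HF-DR mice stood below t0 mice for Mcpt4, Cma1 and Cpa3, with differences of -0.70, -0.77 and -0.64.

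**Figure D2:**
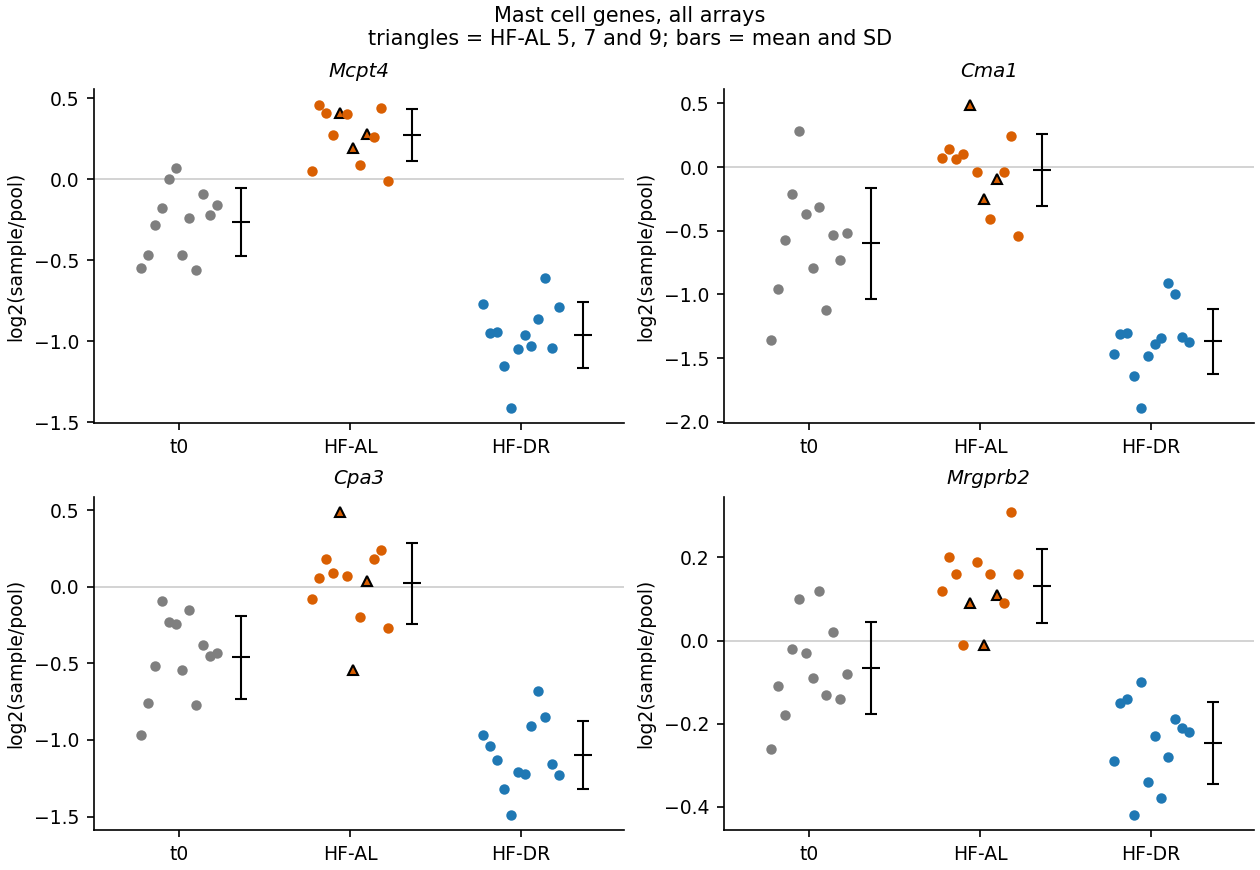
Log2 ratio to the pool on each array for the 4 called mast cell genes, with triangles for HF-AL 5, 7 and 9 and bars for mean and SD. HF-AL mice lie highest and HF-DR mice lowest on average for each gene, and the ranges of t0 and HF-AL overlap for all 4.

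Other immune cells showed a different picture. Mmp12, the macrophage elastase, ran from -0.07 through 0.64 to 0.92 at t0 and from -0.57 through -0.01 to 0.31 in HF-AL. Of the HF-AL mice 4 lay below the t0 range. It fell by 0.59 on the log2 scale (SE 0.10, adjusted p = 0.0022) and was above background on 9 of 12 HF-AL arrays. Its list, genes of lipid-associated macrophages, had 15 measured members, of which Mmp12 was the 1 called; 13 were below 0, with a median of -0.14. Itgax, the integrin chain CD11c, differed by -0.30 ± 0.09 (adjusted p = 0.112).

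None of 20 macrophage markers was called, 16 were below 0 and their median was -0.10; Adgre1, which encodes the F4/80 antigen, differed by -0.14 ± 0.13 (adjusted p = 0.663). The 20 measured chemokines and cytokines had no call either, with a median of -0.09, and Ccl2 differed by -0.26 ± 0.23 (adjusted p = 0.66). Clec4d, a lectin receptor of myeloid cells, fell by 0.46 (SE 0.11, adjusted p = 0.0357), with 9 of 12 HF-AL mice below every t0 mouse. Rgs1, a regulator of G protein signalling in leukocytes, fell by 0.47 (SE 0.11, adjusted p = 0.0357). Both lost the call without HF-AL 5, 7 and 9, at adjusted p of 0.108 and 0.0628.

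Cd163l1, a scavenger receptor of gamma delta T cells, rose by 0.71 ± 0.11 (SE), or 1.63-fold, at an adjusted p of 0.000706. It ranged from -0.95 through -0.68 to -0.31 at t0 and from -0.56 through 0.02 to 0.65 in HF-AL, with 10 of 12 HF-AL mice above the t0 range. T and NK cell markers had no call among 13 measured, 12 of them below 0, with a median of -0.08.

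For B and plasma cells, 1 of 13 measured markers was called. An immunoglobulin gamma heavy chain probe (Ighg) was at -1.86, -1.69 and 0.69 (lowest, median, highest) at t0 and at -1.27, -0.02 and 1.66 in HF-AL. Most t0 mice lay near the bottom of that scale, and the probe was above background on 5 of 12 t0 arrays but on all HF-AL arrays. The rise was 1.46 ± 0.34 (adjusted p = 0.0323), or 1.18 without HF-AL 5, 7 and 9 (adjusted p = 0.135), and another Ighg probe gave 0.11. Igh differed by 1.39 ± 0.37 (adjusted p = 0.064) on its brightest probe and by 0.06 to 1.12 on 4 others, and the joining chain Jchain by 0.79 ± 0.29 (adjusted p = 0.211).

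Red blood cell genes were higher in HF-AL without a call: all 5 measured were above 0, with a median of 0.53, and 4 of them had an unadjusted p under 0.05. Over all genes tested, 7.84% were higher at that level. The beta globin gene Hbb-bt differed by 0.81 ± 0.26 (adjusted p = 0.135), and Alas2, the erythroid enzyme of haem synthesis, by 0.53 ± 0.17 (adjusted p = 0.132). The median was 0.65 without HF-AL 5, 7 and 9. What part blood in the sample had in the other immune values was not tested. Interferon-inducible genes had 1 call among 26 measured, which was Csprs, and a median of 0.13; Rsad2 differed by 0.56 ± 0.15 (adjusted p = 0.0644), and by 0.34 and 0.42 on other probes.

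Among the genes that fell, Fam13a, a gene tied to adipocyte function and fat distribution, had the largest difference of those with a curated name. It ran from -0.82 through 0.03 to 0.68 at t0 and from -1.67 through -0.91 to -0.07 in the 11 HF-AL mice with a value. Of these, 6 were below every t0 mouse. The fall was 0.80 (SE 0.18, adjusted p = 0.0203), or 1.74-fold, and 2 further probes gave -0.71 and -0.70. Without HF-AL 5, 7 and 9 it was -0.78 at an adjusted p of 0.078. HF-DR mice averaged -1.14.

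Cited2, a partner of the coactivators CBP and p300, ran from -0.12 through 0.25 to 1.14 at t0 and from -0.93 through -0.35 to 0.30 in HF-AL, with 8 HF-AL mice below the t0 range. It fell by 0.68 (SE 0.15, adjusted p = 0.0161), and its 3 other probes gave -0.43 to -0.25. Its adjusted p was 0.0875 without HF-AL 5, 7 and 9. Txnip, which binds thioredoxin and limits glucose uptake, ran from -0.11 through 0.25 to 0.79 at t0 and from -0.70 through -0.28 to 0.36 in HF-AL. In 9 of 12 HF-AL mice it was below every t0 mouse, at a fall of 0.52 (SE 0.10, adjusted p = 0.00678). Beside them, the difference HF-DR minus t0 was -1.92 for Cited2 and -1.95 for Txnip.

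Irf4, a transcription factor of lymphocytes, macrophages and adipocytes, fell by 0.63 (SE 0.15, adjusted p = 0.0285). Its t0 mice spread from -0.53 to 1.52 and its HF-AL mice from -0.72 to 0.13. Leaving out HF-AL 5, 7 and 9 gave -0.55 (adjusted p = 0.122), and slide as a block -0.53 (adjusted p = 0.115). Adcyap1r1, the receptor for the neuropeptide PACAP, showed no overlap: t0 mice ran from 0.01 through 0.23 to 1.00 and HF-AL mice from -0.38 through -0.22 to 0.00. It fell by 0.55 (SE 0.11, adjusted p = 0.00574; a second probe gave -0.28) and was lower on 9 of 9 slides that held both groups.

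Foxq1, a forkhead transcription factor, fell by 0.60 (SE 0.14, adjusted p = 0.0323), while HF-DR minus HF-AL was 0.70. Serpina3n, a serine protease inhibitor, fell by 0.53 (SE 0.12, adjusted p = 0.0285), and Slc8b1, the sodium and calcium exchanger of mitochondria, by 0.36 (SE 0.07, adjusted p = 0.00574), with 9 HF-AL mice below the t0 range. Ppp1r13l, an inhibitor of p53 signalling, fell by 0.43 (SE 0.08, adjusted p = 0.00678) on 1 probe while a second gave 0.01. Tmem86a, an enzyme of ether lipid breakdown, fell by 0.41 (SE 0.10, adjusted p = 0.0324), and Fam214a by 0.53 (SE 0.13, adjusted p = 0.0406). Foxq1, Slc8b1 and Ppp1r13l stayed under 0.05 without HF-AL 5, 7 and 9, and Serpina3n, Tmem86a and Fam214a did not.

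**Figure D3:**
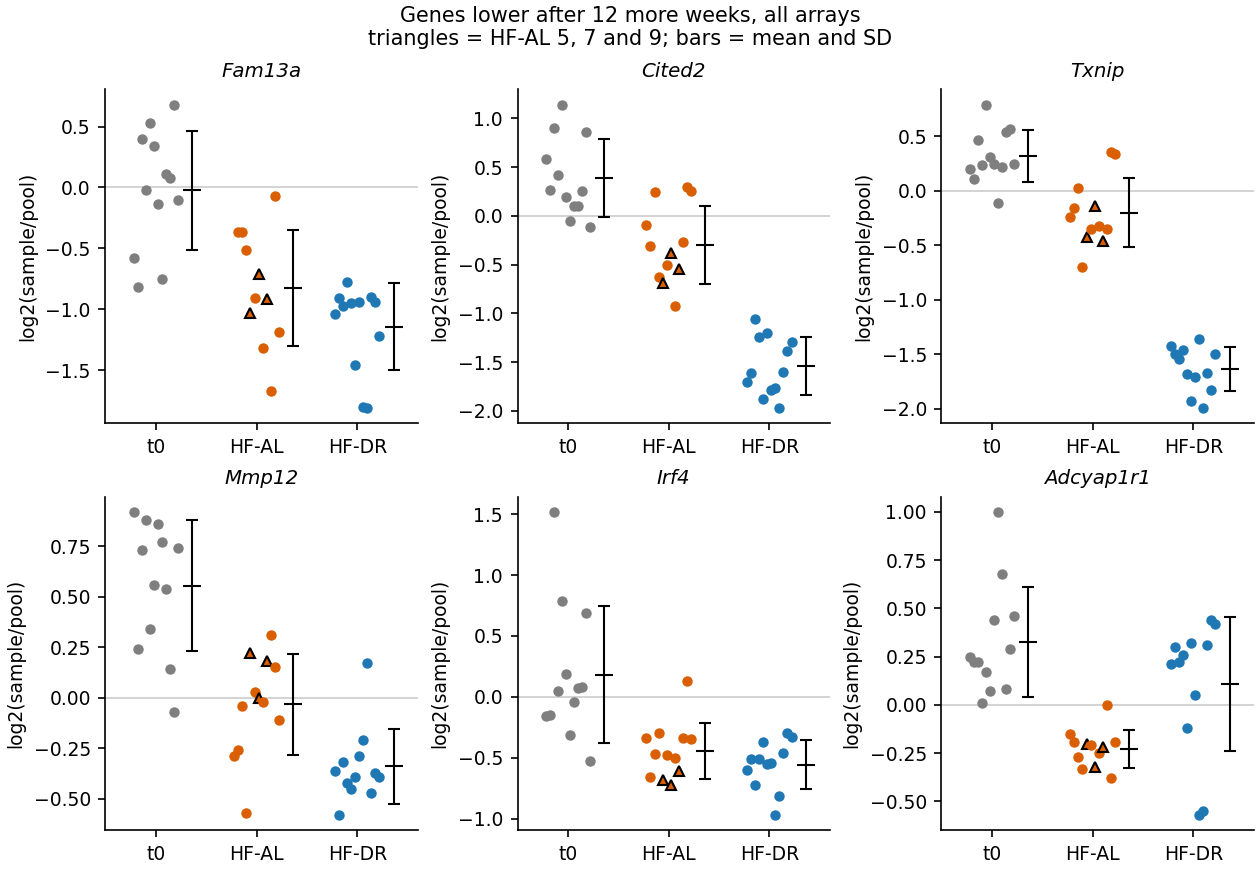
Log2 ratio to the pool on each array for 6 genes that were lower in HF-AL than at t0, with triangles for HF-AL 5, 7 and 9 and bars for mean and SD. The t0 and HF-AL ranges touch or overlap for 5 of the genes and are separate for Adcyap1r1. HF-DR mice lie lowest on average for each gene but Adcyap1r1, and wholly below both other groups for Cited2 and Txnip.

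The other large rises among genes with a curated name were in genes of varied roles. Myh14, a nonmuscle myosin heavy chain, ran from -0.86 through -0.54 to -0.07 at t0 and from -0.14 through 0.20 to 0.64 in HF-AL. With 10 of 12 HF-AL mice above the t0 range, it rose by 0.73 ± 0.12 (SE), or 1.66-fold (adjusted p = 0.000984), and by 0.64 without HF-AL 5, 7 and 9. Mapt, which encodes the microtubule protein tau, rose by 0.72 ± 0.12 (adjusted p = 0.00168), and its 2 other probes gave 0.39 and 0.65. Without HF-AL 5, 7 and 9 its rise was 0.52 (adjusted p = 0.00625).

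Lhfpl4, a membrane protein of inhibitory synapses, rose by 0.57 ± 0.08 (adjusted p = 7.3e-05), with 11 of 12 HF-AL mice above the t0 range. Pcdha9, a protocadherin of the alpha cluster, ran from -0.42 through -0.25 to 0.04 at t0 and from -0.04 through 0.24 to 0.46 in HF-AL, again with 11 of 12 mice above the t0 range. Its rise was 0.47 ± 0.06 (adjusted p = 3.2e-05). Unc79, a subunit of the NALCN sodium leak channel, rose by 0.52 ± 0.09 (adjusted p = 0.00416), and Lypd6b, a modulator of nicotinic receptors, by 0.59 ± 0.11 (adjusted p = 0.00606). For Lhfpl4 and Unc79 the HF-DR mice were below t0, with differences of -0.47 and -0.37.

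Homer2, a scaffold protein of synapses and muscle, was separate between the groups, at -0.74 to -0.24 in t0 and -0.23 to 0.11 in HF-AL. It rose by 0.44 ± 0.10 (adjusted p = 0.0267), with a second probe at 0.01, and lost the call without HF-AL 5, 7 and 9 (0.40, adjusted p = 0.107). Slc35g1, a membrane transporter, differed by 0.81 ± 0.20 with those arrays (adjusted p = 0.0406) and by 0.45 without (adjusted p = 0.153). Nipsnap1, a mitochondrial protein, rose by 0.54 ± 0.12 (adjusted p = 0.0166; 0.35 and 0.0951 without them), and Pcbd1, an enzyme of tetrahydrobiopterin recycling, by 0.57 ± 0.14 (adjusted p = 0.0426; 0.40 and 0.194). HF-DR minus t0 was 1.25 for Homer2, 1.09 for Nipsnap1 and -1.29 for Pcbd1.

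Genes of the extracellular matrix lay mostly lower in HF-AL. Of 36 measured, 1 was called lower, none was called higher and 33 had a difference below 0, with a median of -0.19. At an unadjusted p under 0.05, 16 were lower (44.4%) and 1 was higher, beside 5.61% and 7.84% of all genes tested. Without HF-AL 5, 7 and 9 the median was -0.16, 30 of 36 were below 0, 8 were lower at an unadjusted p under 0.05 and none was called.

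Col5a2, a chain of the type V collagen that seeds collagen fibrils, ran from 0.18 through 0.48 to 0.83 at t0 and from -0.13 through 0.14 to 0.50 in HF-AL, and 7 HF-AL mice were below every t0 mouse. Its fall was 0.34 (SE 0.08, adjusted p = 0.0391), and the difference was -0.26 at an adjusted p of 0.188 without HF-AL 5, 7 and 9. Col5a3, another type V chain that is not on the list, fell by 0.40 (SE 0.10, adjusted p = 0.0407; 0.137 without those arrays). The main fibrillar chains did not pass: Col1a1 differed by -0.26 ± 0.11 (adjusted p = 0.264) and Col3a1 by -0.32 ± 0.11 (adjusted p = 0.182; -0.23 and 0.13 on other probes). Thbs2 and Postn, matrix proteins that bind cells and collagen, differed by -0.41 ± 0.12 (adjusted p = 0.0886) and -0.35 ± 0.11 (adjusted p = 0.107), and Timp2, an inhibitor of matrix proteases, by 0.25 ± 0.12 (adjusted p = 0.351). HF-DR mice stood at -1.41 for Col5a2 and -1.90 for Col1a1.

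No adipocyte marker was called. Of 18 mature adipocyte markers 16 were below 0, with a median of -0.13, and 4 (22.2%) were lower at an unadjusted p under 0.05, beside 5.61% of all genes. The median was -0.06 and 2 were lower in that way without HF-AL 5, 7 and 9. Acsl1, which activates fatty acids, had the lowest difference, -0.37 ± 0.13 (adjusted p = 0.159). The block on slides gave it -0.43 at an adjusted p of 0.0214. Adipoq, the hormone adiponectin, ran from 0.33 through 0.64 to 0.99 at t0 and from -0.05 through 0.59 to 1.03 in HF-AL, a difference of -0.12 ± 0.13 (adjusted p = 0.759). Pparg, the master regulator of fat cells, differed by -0.00 ± 0.12 (adjusted p = 0.999). Leptin (Lep), which rises with fat mass, ran from -1.32 through 0.16 to 0.85 at t0 and from -0.37 through 0.37 to 1.00 in HF-AL, with ranges that largely coincide. Its difference was 0.35 ± 0.23 (adjusted p = 0.519).

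Of 15 genes tied to the expansion of fat mass, Fam13a was the only call, and the median was -0.15. Mest, an imprinted gene that follows fat cell growth, was at -1.46, 0.43 and 0.93 at t0 and at -1.33, -0.29 and 0.96 in HF-AL (lowest, median, highest). Its difference of -0.38 ± 0.29 (adjusted p = 0.602) was smaller than the SD of either group, 0.70 and 0.67. Npr3, the clearance receptor for natriuretic peptides, differed by 0.07 ± 0.23 (adjusted p = 0.938) and Sfrp5, a secreted Wnt inhibitor, by 0.19 ± 0.12 (adjusted p = 0.526). HF-DR minus t0 was -2.35 for Mest and -3.11 for Npr3.

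Metabolic pathways had no call in any of their lists, where 0.697% of all genes tested were called. Fatty acid synthesis had 25 measured genes with a median of 0.03: Fasn, fatty acid synthase, differed by -0.04 ± 0.20 (adjusted p = 0.958), the elongase Elovl6 by 0.14 ± 0.15 (adjusted p = 0.736), and the desaturase Scd1 by -0.09 ± 0.15 (adjusted p = 0.858). Cholesterol synthesis had 24 with a median of 0.08, of which 20 were above 0. Lipolysis had 20 with a median of -0.13, of which 15 were below 0. At an unadjusted p under 0.05, 5 of the 20 were lower and 2 higher, beside 5.61% and 7.84% of all genes tested. Pnpla3, a lipid droplet hydrolase, was the highest of the lipolysis genes at 0.73 ± 0.20 (adjusted p = 0.0721).

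Differences in the mitochondrial lists were small, with most below 0 in the citric acid cycle and fatty acid oxidation lists. All 41 genes of the respiratory chain, all 29 of the citric acid cycle and pyruvate oxidation and all 23 of fatty acid oxidation had a 95% interval inside 1.5-fold either way, beside 94.7% of all genes tested. That held as well for all 20 macrophage markers, all 22 cell cycle genes and all 32 antioxidant genes. The medians of the 3 mitochondrial lists were -0.02, -0.07 and -0.07. In the same order, 23 of 41, 25 of 29 and 21 of 23 differences were below 0, beside 7828 of 16495 genes tested. Slc2a4, the insulin-responsive glucose transporter, differed by -0.08 ± 0.12 (adjusted p = 0.844). None of 19 senescence and ageing-linked genes was called, with a median of -0.02, and none of the 22 measured for the cell cycle, with a median of -0.06. The circadian clock list had 18 measured genes, no call and a median of -0.04.

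**Figure D4:**
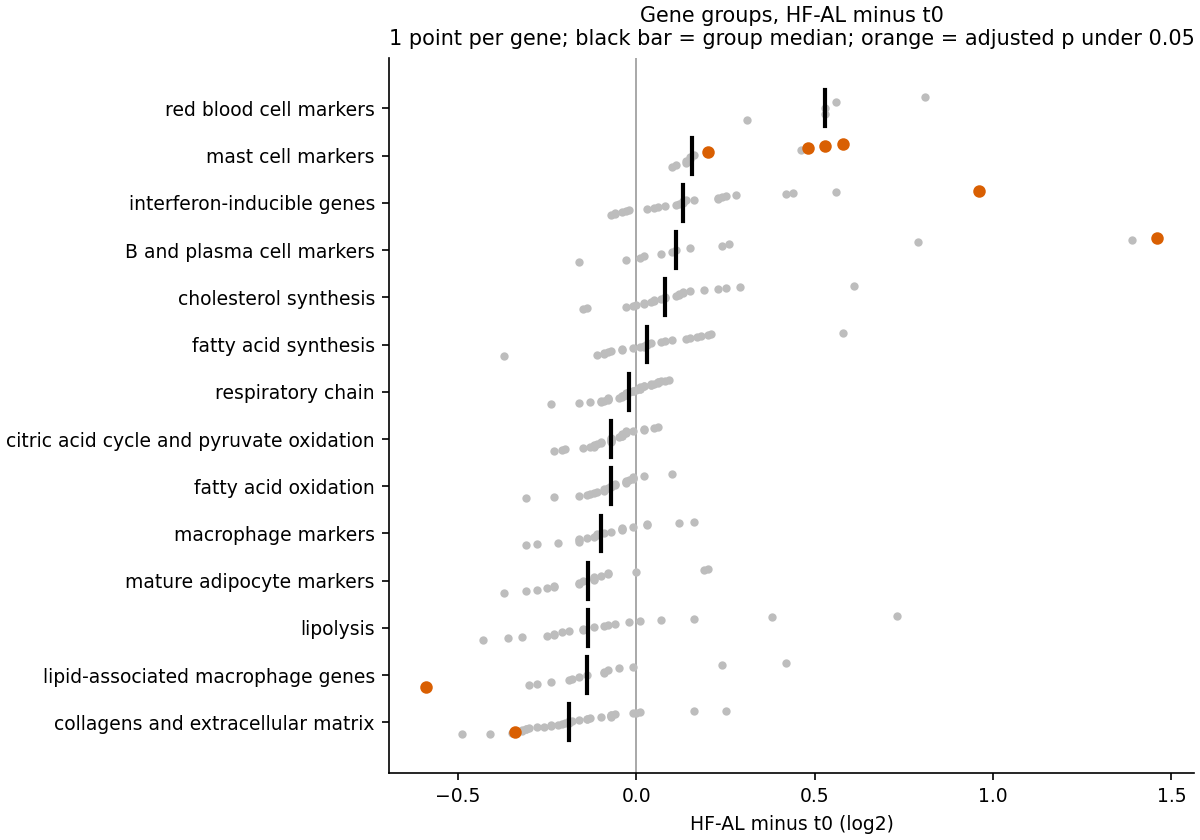
Difference HF-AL minus t0 (log2, horizontal axis) of each measured gene in 14 gene groups, with a black bar at the group's median and orange points where the adjusted p was under 0.05. Mast cell and red blood cell genes lie right of 0 and matrix genes lie mostly left of it. Genes of mitochondrial pathways lie close to 0, mostly left of it for the citric acid cycle and fatty acid oxidation.

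Many calls were lost when HF-AL 5, 7 and 9 were left out. Of the 115 genes 51 kept an adjusted p under 0.05 and 64 did not, and 17 genes were called that had not been before. All 115 kept their direction. That was likely from the start, since they were chosen for a difference in data that include the arrays of the repeat. Of the 77 genes called higher, 30 had at least 2 of their 3 highest HF-AL arrays among HF-AL 5, 7 and 9, and of the 38 called lower, 9 had at least 2 of their 3 lowest. The same shares over all genes tested were not counted. The median SD of a gene over the HF-AL arrays was 0.16 with HF-AL 5, 7 and 9 and 0.14 without, beside 0.13 at t0. What part the source of the sperm and epithelial transcripts had in the lost calls was not tested, since the repeat also has fewer arrays.

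**Figure D5:**
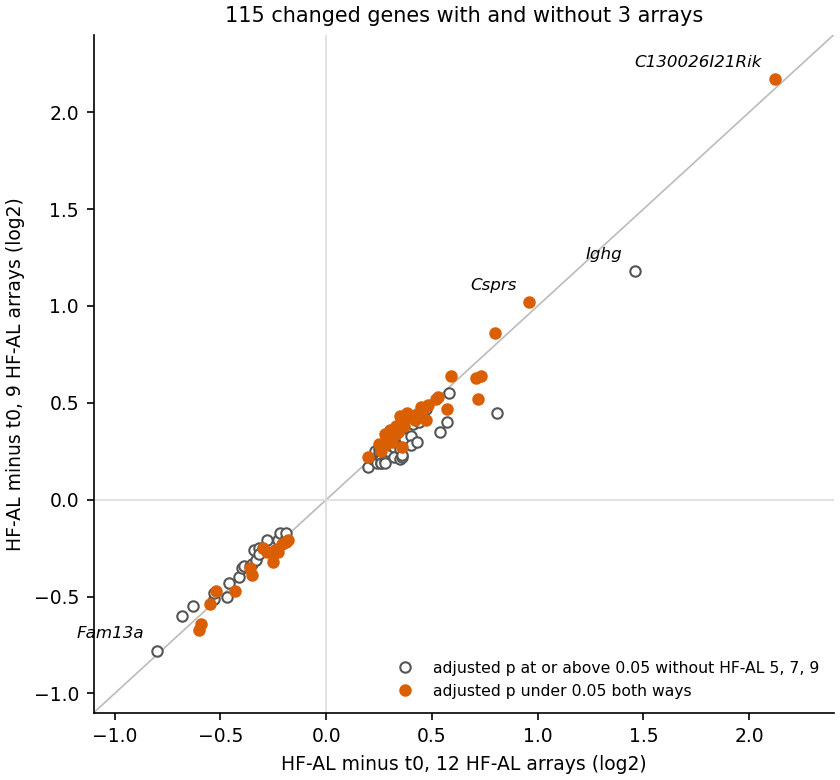
Difference HF-AL minus t0 (log2) of the 115 called genes with all 12 HF-AL arrays (horizontal) and with 9 (vertical); the grey line marks equal values, and filled points have an adjusted p under 0.05 both ways. Points lie near the line, with Slc35g1 and Ighg below it.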

How the data were processed

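RNA of epididymal fat from 36 mice was measured on 2-colour Agilent arrays. The deposited scanner files hold spot intensity values per channel, which the authors read out in Agilent Feature Extraction (version 9.5.3.1 in the submitters' processing notes); probe positions are other values in them, on mm8, taken per the file headers. A deposited value table in log2 units followed each array's Cy5 level (r from 0.99 upward on every array), with column medians of 9.26 to 9.29; how it was scaled is not given in the sources used. It served as an alternative.

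Spots under a net signal of -50 were left out as specks (84 on 12 arrays), then background was corrected with normexp (offset 50) and ratios normalised by loess within arrays, without scaling between arrays. Outlier spots were masked. A probe stayed if well above background in Cy5 on at least 9 arrays of a group (24706 probes), and the brightest probe stood for its gene. limma 3.58.1 (lmFit, eBayes, R 4.3.3) fitted all 36 arrays with 1 mean per group, two-sided, with Benjamini-Hochberg adjustment over 16495 genes; each confidence level was 95%. The number of arrays limits the precision. The lowest correlation between 2 of the 24 arrays was -0.03, and between 2 of all 36 it was -0.41; the direction follows the dyes stated in the labels. Labels give 1 animal per array. The fit was tested on simulated data.

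The members and the gene lists were chosen with earlier results of these data known. Named genes are the 15 largest rises and falls with a curated symbol, up to 3 genes of smallest adjusted p per list (37 lists) and a fixed set. A gene outside this rule is said to be so, with some exceptions. These are neighbours on chromosome 1, the duct, gland and sperm markers, and the genes printed because their groups did not overlap. Kit, Fcer1a, Hdc, Tpsb2, Timp2 and Asb4 were also outside the rule. The remaining lists, of antigen presentation, complement, neutrophils, adipokines, progenitors, triglyceride storage, glycolysis, insulin signalling, glucocorticoid response, beige fat, endothelium, smooth muscle, mesothelium, skeletal muscle, unfolded proteins and antioxidants, had no call and medians from -0.12 to 0.05. Same-numbered samples of the groups did not deviate together (correlations from -0.46 to 0.29), so the numbers were not used as pairs.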

Additional observations from a re-analysis of the deposited data

How the results depend on the processing

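The alternatives were other background and signal choices, filters, scalings, blocks and left-out arrays. For 10 of the same 35 named genes with a call (C130026I21Rik, Csprs, Mcpt4, Adcyap1r1, Cd163l1, Lhfpl4, Lypd6b, Mapt, Myh14 and Pcdha9) the call and direction held under each of 15 alternatives, A530032D15Rik and Mmp12 held in all settings that measured them, and no called gene reversed. The medians of mast cell, red blood cell and matrix genes kept their sign in each of 15 alternatives. All alternatives drew on the same arrays or on a part of them, so a kept direction or sign was likely from the start. Against 115 changed genes, the count was 211 on Feature Extraction's processed signals, 1132 after scaling between arrays, 71 with no filter on dim probes, 305 on the 24 arrays alone, 810 with array weights, 68 without HF-AL 5, 7 and 9, and 55 without those and t0 6. Higher genes, 77 at first, then numbered 597 after scaling, 47 with no filter, 159 on 24 arrays, 423 with weights, 44 without the 3 arrays and 37 without the 4. Lower genes, 38 at first, numbered 14 with specks kept, 116 on processed signals, 66 in the deposited log2 table, 535 after scaling, 24 with no filter, 146 on 24 arrays, 387 with weights, 24 and 18. So 67% of calls were rises, against 52.7% after scaling, 45% on processed signals and 44.1% in the deposited table. Without HF-AL 5, 7 and 9 the 68 genes became 41 with specks kept, 920 after scaling, 45 with no filter, 214 on 24 arrays, 777 with weights and 5 with slide as a block. In the last of these fits t0 7, 9 and 11 also dropped out, since each was then alone on its slide. With no filter 26433 of 27589 genes had an interval inside 1.5-fold. The causes were not tested. The block on slides is described above. A replicate block, on numbers that did not pair the samples, gave 133 genes, 92 shared with the 115, and 42 without HF-AL 5, 7 and 9. Scan date could not be a block, since all arrays share 1, and values within slides are given as counts of slides. Genes with no call in either setting were not followed for their sign.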

Other observations

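A few transcripts with clone names, chosen after their values were seen, were among the rises. The cDNA clone AK080157 rose by 0.80 ± 0.16 (SE, adjusted p = 0.00941), with 10 of 12 HF-AL mice above every t0 mouse, and 2810032G03Rik rose by 0.46 ± 0.07 (adjusted p = 7.4e-05). Tfr2, the second transferrin receptor of liver and erythroid cells, rose by 0.42 ± 0.07 (adjusted p = 0.0023), also outside the naming rule, and Asb4 fell by 0.30 (SE 0.06, adjusted p = 0.00448).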
